A study of Mus musculus with 18 samples.

Results

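The contrast described here asks whether the response of tumour endothelial cells (ECs) to the STING agonist cGAMP depends on how the tumour arose. It is the change from PBS to cGAMP in ECs of implanted breast tumours minus the same change in ECs of MMTV-PyMT spontaneous breast tumours, taken gene by gene on the scale of log2(FPKM + 1). The 4 tumour groups gave 12 of the 18 libraries in the series, 3 libraries per group, and 13983 of the 16248 genes listed were expressed highly enough to be tested (FPKM of at least 1 in at least 3 libraries). All mice were of the FVB strain and female. MMTV-PyMT mice carried the polyoma middle T oncogene under the mouse mammary tumour virus promoter, which is active in mammary epithelium, and grew tumours on their own. Implanted tumours arose in the mammary fat pad of wild-type FVB mice after injection of cultured tumour cells taken from MMTV-PyMT mice, so the tumour cells of all 4 groups carried the oncogene, but the host and its ECs carried it only in MMTV-PyMT mice. PBS or cGAMP was injected into the tumour, and after 3 hours living cells that carried CD31 and lacked CD45 were sorted.

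cGAMP is a cyclic dinucleotide that binds STING, an adaptor of the endoplasmic reticulum. STING recruits the kinase TBK1, which phosphorylates the transcription factor IRF3, and the type I interferon that follows acts through its receptor, JAK kinases and STAT factors on genes with interferon-stimulated response elements (ISREs). Type II interferon, a product of lymphocytes, acts on genes that carry gamma-activated sites (GAS). ECs respond to both, and in tumours they present chemokines and adhesion molecules to leukocytes.

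The cGAMP effect differed between the tumour types in both directions. It was higher in implanted tumour ECs for 258 genes (1.85% of those tested) and lower for 88 genes (0.629%), by limma with Benjamini-Hochberg adjustment, an adjusted p under 0.05 and a log2 difference of at least 1 (2-fold) either way. A gene meeting both limits is said to be called. The set with a higher cGAMP effect in implanted ECs was led by Ifit1bl1, Ido1, Il15 and Mxd1, and the other set by Cxcl9 and the interferon-inducible GTPases Iigp1, Igtp and Tgtp1. This split of 74.57% higher depended on scaling, on the pseudocount and on the use of voom. The pseudocount and voom fits kept the scaling of the FPKM values. With scaling by total reads 143 genes were higher and 157 lower (47.67% higher), with quantile normalization 195 and 126 (60.75%), with voom on recovered reads 303 and 215 (58.49%), and with a pseudocount of 0.1 325 and 215 (60.19%). The median difference over all tested genes was 0.02 and moved to -0.11 with scaling by total reads, so differences under that scaling are read against that shift.

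Promoters are shown for named genes with the largest differences in each direction among those with a RefSeq window. The next such gene with a higher value, Ms4a6b, held 0 matches to either motif below and is not printed. Igtp and Tgtp1, which rose less in implanted ECs, each held the letters GAAANNGAAA of an ISRE and TTCNNNGAA of a GAS side by side, while Cxcl9, Ifit1bl1 and Mxd1 did not have both. Each line gives the 250 bases before the RefSeq transcription start, 5′ to 3′ on the strand of the gene, with matches to either motif on either strand in capitals.
Igtp: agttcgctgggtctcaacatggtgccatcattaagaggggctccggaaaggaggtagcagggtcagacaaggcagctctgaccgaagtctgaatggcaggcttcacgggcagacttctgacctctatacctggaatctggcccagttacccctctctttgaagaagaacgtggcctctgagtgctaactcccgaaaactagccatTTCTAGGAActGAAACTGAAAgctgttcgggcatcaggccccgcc
Tgtp1: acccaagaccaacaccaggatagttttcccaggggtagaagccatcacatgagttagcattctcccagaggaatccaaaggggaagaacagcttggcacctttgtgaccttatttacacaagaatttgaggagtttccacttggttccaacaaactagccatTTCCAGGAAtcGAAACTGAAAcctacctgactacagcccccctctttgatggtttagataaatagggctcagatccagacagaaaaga
Cxcl9: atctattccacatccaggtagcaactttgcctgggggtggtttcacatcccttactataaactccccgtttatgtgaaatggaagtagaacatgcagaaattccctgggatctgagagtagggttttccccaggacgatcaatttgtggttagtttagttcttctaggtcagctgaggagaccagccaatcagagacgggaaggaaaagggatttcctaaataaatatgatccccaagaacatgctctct
Ifit1bl1: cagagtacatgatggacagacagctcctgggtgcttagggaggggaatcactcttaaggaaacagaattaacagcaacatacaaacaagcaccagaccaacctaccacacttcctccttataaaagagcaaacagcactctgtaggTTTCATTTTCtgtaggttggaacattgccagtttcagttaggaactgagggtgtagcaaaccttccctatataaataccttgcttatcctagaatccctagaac
Mxd1: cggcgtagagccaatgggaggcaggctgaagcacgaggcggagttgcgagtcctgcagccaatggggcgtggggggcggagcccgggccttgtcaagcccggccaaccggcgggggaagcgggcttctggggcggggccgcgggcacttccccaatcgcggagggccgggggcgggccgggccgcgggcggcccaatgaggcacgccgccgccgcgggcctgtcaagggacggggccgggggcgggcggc
In build GRCm38.p6 these windows lie at chr11:58199306-58199555, plus strand for Igtp, chr11:48992247-48992496, minus strand for Tgtp1, chr5:92328080-92328329, minus strand for Cxcl9, chr19:34601969-34602218, minus strand for Ifit1bl1 and chr6:86669160-86669409, minus strand for Mxd1. A single GAAANNGAAA match stood in the Ifit1bl1 window, and none of either motif in those of Cxcl9 and Mxd1.

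Counted over whole groups of genes, the matches were unevenly spread. Of the 21 genes called higher in MMTV-PyMT ECs and lower for the difference, 13 had a RefSeq window, and 11 of these (84.6%) held GAAANNGAAA and 6 (46.2%) TTCNNNGAA. Of the 217 genes with a larger rise in implanted ECs, 166 had a window, and 13 (7.83%) held GAAANNGAAA and 12 (7.23%) TTCNNNGAA. The 29 windows of genes that fell in implanted ECs held GAAANNGAAA 0 times and TTCNNNGAA in 3 (10.3%). Among all 9831 windows of tested genes the shares were 2.7% and 5.79%. A kappaB-type motif was found in 2 of the 13 windows (15.4%), in 16 of the 166 (9.64%) and in 9% of all windows. Lrrc4 and Cxcl9 were the members of the first group with a window and no GAAANNGAAA. These are counts of letters in a short window and do not show that a factor bound there. The first group rose by a median of 4.3 in MMTV-PyMT ECs, against 0.34 for the 217 genes. Shares among other genes that rose strongly in both tumour types were not counted, so the part of the size of the rise was not tested.

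The libraries were compared for depth and for RNA of other cells before genes were examined. Whole reads recovered from the FPKM values ranged from 9184658 to 12200551 per library over the series. The 10 endothelial markers summed to between 829 and 2010 FPKM in the tumour libraries (829 to 1210 in the MMTV-PyMT groups), so endothelial RNA was present in each. The 14 markers of mammary or tumour epithelium were present throughout, summed to more than the endothelial markers in every MMTV-PyMT library, and were lower in the implanted groups (974 to 1320 FPKM under PBS and 492 to 1010 under cGAMP, against 1940 to 2600 and 1950 to 2720 in the MMTV-PyMT groups). The 14 of 20 leukocyte markers in the table summed to 50.6 to 126 FPKM in implanted PBS libraries, 36.4 to 57.9 in MMTV-PyMT PBS and 37 to 45.8 in MMTV-PyMT cGAMP libraries. In implanted cGAMP libraries they summed to 106, 509 and 101 FPKM, so implanted cGAMP 2 stood apart. Fibroblast markers moved the same way, with 601, 734 and 305 FPKM in implanted cGAMP libraries against 285 to 322 in implanted PBS and 162 to 253 in all MMTV-PyMT libraries. The median difference of the leukocyte markers was 1.10, with 0 of 14 called, and that of the fibroblast markers 0.78, with Dcn called. Without implanted cGAMP 2, 302 genes were higher and 91 lower. The part of leukocyte and fibroblast RNA in single results was not tested, and in sorted bulk RNA fewer cells of a type and less RNA per cell cannot be told apart.

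**Figure D1:**
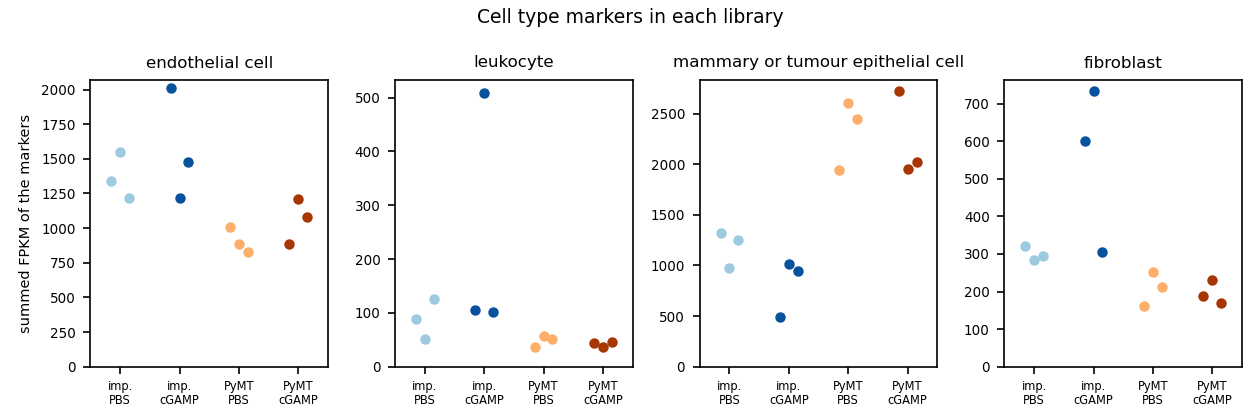
Summed FPKM of the markers of 4 cell types in each of the 12 tumour EC libraries, with 1 point per library and a linear axis from 0; imp. stands for implanted and PyMT for MMTV-PyMT tumours. The leukocyte sum of 509 FPKM in implanted cGAMP 2 stands above the other 11 libraries, and the epithelial sums are higher in both MMTV-PyMT groups.

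The 346 called genes were sorted by how each tumour type had responded. The largest class comprised 217 genes called higher in implanted ECs with a smaller change in MMTV-PyMT ECs, of which 40 were called higher in both tumour types and 177 in implanted ECs alone (background 6.13% called higher in implanted and 2.49% in MMTV-PyMT ECs). Their median change was 1.63 in implanted and 0.34 in MMTV-PyMT ECs. In contrast, 21 genes were called higher in MMTV-PyMT ECs and had a smaller rise or a fall in implanted ECs. Of these, 16 were called higher in both, 4 in MMTV-PyMT ECs alone, and 1, the predicted gene Gm49958, rose by 1.02 in MMTV-PyMT ECs and fell by 1.21 in implanted ECs. The median change of the 21 genes was 4.3 in MMTV-PyMT and 2.28 in implanted ECs. A further 41 genes fell in implanted ECs (median -1.28, against -0.06 in MMTV-PyMT ECs), and 1 gene, Dusp4, fell in MMTV-PyMT ECs (background 1.09% and 0.0715%). For the other 66 genes neither change alone was called. These classes describe the contrast with the libraries that also entered its test.

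**Figure D2:**
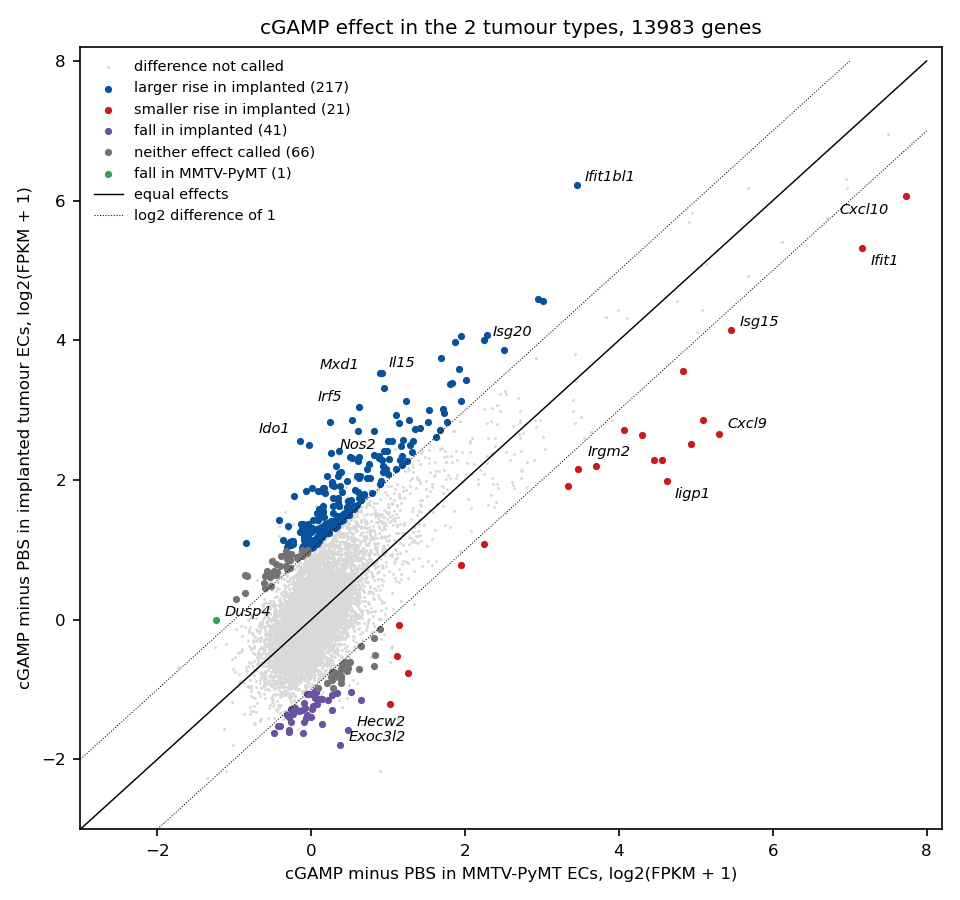
Change from PBS to cGAMP in MMTV-PyMT ECs (x axis) and in implanted tumour ECs (y axis), both in log2(FPKM + 1), for 13983 genes with 1 point per gene; colours give the class of the called genes, the solid line equal changes and the dotted lines a difference of 1. The 217 genes with a larger rise in implanted ECs lie above the lines mostly at small changes in MMTV-PyMT ECs, and 13 of the 21 red genes lie at changes above 2 in both.

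Interferon-inducible GTPases, which attack the membranes around intracellular pathogens, had the lowest median of the lists. All 15 tested members were called higher with cGAMP in both tumour types, as were 309 of all 13983 tested genes. The difference was called lower for 8 and higher for 1 (background 0.629% and 1.85%), with a median difference of -1.27. The difference was negative for 14 of the 15, and for 6594 of all 13983 tested genes. The implanted PBS libraries were already high. All 15 were called higher in implanted than in MMTV-PyMT ECs under PBS (background 4.28%), with a median difference in level of 2.8, and 12 of 15 under cGAMP (background 7.02%), with a median of 1.57. The number called lower for the difference was 8 to 10 when 1 library was left out.

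Igtp (ENSMUSG00000078853.8, chromosome 11, 58199556 to 58207591) is an immunity-related GTPase. It measured 122, 88.3 and 112 FPKM in the implanted PBS libraries and 648, 593 and 598 FPKM in the implanted cGAMP libraries. The MMTV-PyMT libraries gave 5.48, 7.53 and 5.84 FPKM under PBS and 169, 238 and 269 FPKM under cGAMP. Each group was thus apart from the others, with implanted ECs above MMTV-PyMT ECs under both treatments. The ratio of means went from 17.1-fold under PBS to 2.72-fold under cGAMP, and the log2 difference was -2.43 (SE 0.261, adjusted p = 4.5e-05). Irgm2 overlaps Igtp on the same strand of the annotation, so the reads of these 2 genes may not be fully separated, and near-identical relatives make Tgtp1 and other members uncertain in the same way.

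For Iigp1, another member of the family, the levels came close under cGAMP. Implanted ECs gave 91.8 ± 15.7 FPKM (SD, n = 3) with PBS and 363 ± 38.3 FPKM with cGAMP and MMTV-PyMT ECs from 10.2 ± 1.84 to 277 ± 56.3 FPKM, a difference of -2.64 (SE 0.226, adjusted p = 1.2e-05). Irgm1 showed the same order, with a ratio of implanted to MMTV-PyMT means of 5.14 under PBS and 1.30 under cGAMP (difference -1.50, SE 0.181). Tgtp1 stayed apart, with 25.4, 18.3 and 22.1 FPKM rising to 121, 103 and 107 in implanted ECs and 0.525, 0.622 and 0.584 FPKM rising to 28, 41.8 and 40.8 in MMTV-PyMT ECs (difference -2.28, SE 0.215). Gbp2, a guanylate-binding protein, went from 263 ± 55.7 to 1663 ± 401 FPKM in implanted and from 17.4 ± 1.38 to 363 ± 59.1 FPKM in MMTV-PyMT ECs (difference -1.65, SE 0.289). The other members called lower were Irgm2 (-2.18), Gbp7 (-1.32) and Gbp5 (-1.27). The exception was Gbp2b, a relative of Gbp2, at 1.38. Gbp2b was near 0 in MMTV-PyMT PBS libraries (0.0534, 0.229 and 0.112 FPKM), and its difference turned to -0.04 with a pseudocount of 0.1 and to -0.80 with voom, so its direction depends on how low values are treated.

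**Figure D3:**
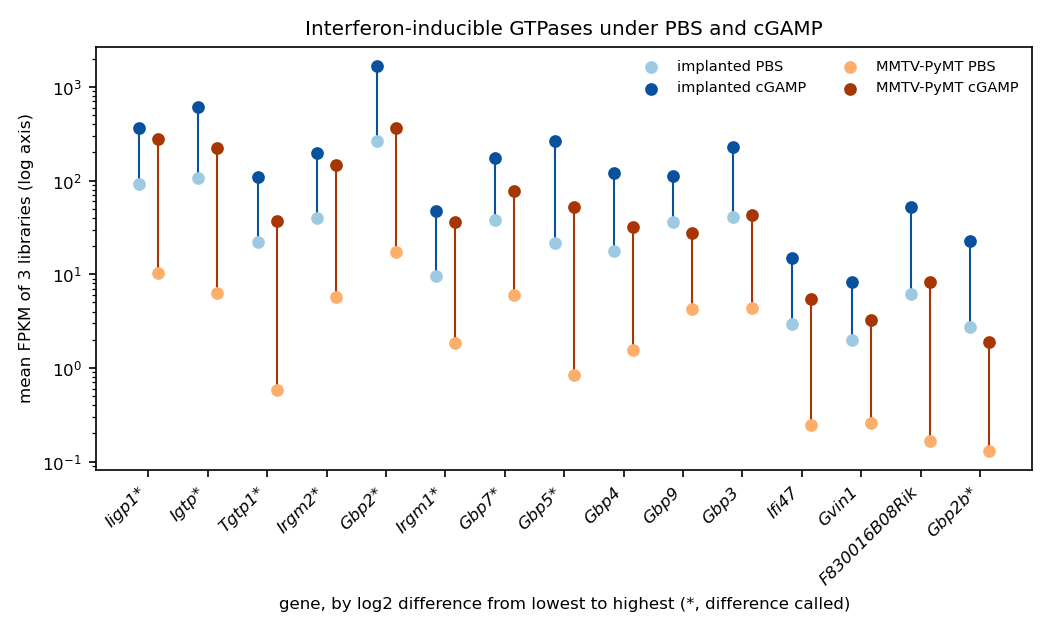
Mean FPKM of 3 libraries (log axis) of 15 interferon-inducible GTPases under PBS and cGAMP, joined by a line for each tumour type and ordered by the log2 difference, with a star where the difference was called. The PBS means of implanted ECs lie above those of MMTV-PyMT ECs for all 15 genes, and the cGAMP means lie closer together.

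On the linear scale the order turned for many of these genes. The rise in FPKM was larger in implanted than in MMTV-PyMT ECs for 13 of the 21 genes called higher in MMTV-PyMT ECs and lower for the difference. It exceeded that of MMTV-PyMT ECs by 286 FPKM for Igtp, 1053 FPKM for Gbp2 and 1182 FPKM for Cxcl9, but by 3.31 FPKM for Irgm1 and 4.82 FPKM for Iigp1. Ifit1 had the larger rise in MMTV-PyMT ECs on either scale.

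Among 24 tested chemokines and cytokines the difference was called higher for 4 and lower for 2 (background 1.85% and 0.629%), with a median of 0.43. Both lower ones were ligands of CXCR3, the receptor that draws activated T cells. Cxcl9 (ENSMUSG00000029417.9, chromosome 5, 92321347 to 92328079) measured 289, 213 and 201 FPKM in implanted PBS and 2225, 1119 and 1273 FPKM in implanted cGAMP libraries. In MMTV-PyMT ECs it was 2.2, 1.74 and 2.32 FPKM under PBS and 82.9, 149 and 141 FPKM under cGAMP. The implanted PBS libraries were therefore above the cGAMP libraries of MMTV-PyMT tumours. The rise was 6.56-fold in implanted and 59.5-fold in MMTV-PyMT ECs, and the log2 difference -2.64 (SE 0.434, adjusted p = 0.0011). Cxcl10 (chromosome 5, 92346638 to 92348889) rose 70.9-fold in implanted and 467-fold in MMTV-PyMT ECs (difference -1.66, SE 0.308, adjusted p = 0.0025), from 18.5 ± 5.6 and 0.825 ± 0.326 FPKM (SD, n = 3). The third CXCR3 ligand, Cxcl11, rose by 5.09 and 5.13 on the log2 scale and had a difference of -0.04 (SE 0.371, adjusted p = 0.96). Its PBS values in MMTV-PyMT ECs were 0.0199, 0.0486 and 0.083 FPKM, under the pseudocount, and its ratios of means were 37.5 and 724. With a pseudocount of 0.1 the difference of Cxcl11 was -2.72 (adjusted p = 0.000984) and with voom -4.13 (adjusted p = 0.0461), both called lower, so its value depends on how low values are treated.

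The 4 genes called higher were Il15, Il33, Csf1 and Cx3cl1. Il15 (ENSMUSG00000031712.10, chromosome 8, 82331632 to 82403222), which sustains natural killer and memory CD8 T cells, measured 4.54, 4.29 and 3.27 FPKM in implanted PBS and 84, 44.9 and 48.1 FPKM in implanted cGAMP libraries. In MMTV-PyMT ECs it went from 2.17, 2.61 and 2.12 FPKM to 4.04, 6.37 and 5.21 FPKM. The cGAMP libraries were above the PBS libraries in both tumour types, as held for 22.4% of all tested genes in implanted and 14.8% in MMTV-PyMT ECs, but the ratio of means was 14.6 against 2.26, and the change in MMTV-PyMT ECs was not called (difference 2.63, SE 0.272, adjusted p = 4.2e-05). Il33, an alarmin of vessel walls, started lower in implanted ECs (1.01 ± 0.161 against 4.43 ± 0.286 FPKM, SD, n = 3) and reached 7.44 ± 3.58 against 5.59 ± 1.26 FPKM (difference 1.71, SE 0.353). Csf1, the growth factor of macrophages, rose 6.46-fold against 2.65-fold (1.24, and 0.88 with quantile normalization), and Cx3cl1, a membrane-bound chemokine, 5.15-fold against 2.31-fold (1.14, but 0.98 without MMTV-PyMT cGAMP 2, 0.96 with total reads and 0.76 with quantile normalization). Tnf, Ccl5 and Ccl2 rose in both tumour types, with differences of -0.91, -0.76 and 0.87 that did not pass (adjusted p = 0.14, 0.13 and 0.32). Ccl5, a T cell attractant, was however called lower with a pseudocount of 0.1 (-2.66), with voom (-3.09), with total reads (-1.06) and with quantile normalization (-1.15). Cxcl1, a neutrophil attractant, rose in MMTV-PyMT ECs (1.34) and had 0.23 in implanted ECs, a difference of -1.11 that did not pass (adjusted p = 0.093) but was called with total reads (-1.29), with quantile normalization (-1.37), without implanted cGAMP 1 or without MMTV-PyMT PBS 1 (adjusted p down to 0.0162). Il7 reached 0.98 (adjusted p = 0.0011), just below the limit on size, and was called in 8 of 20 alternatives. The other 12 members lay between -0.57 and 1.44 and did not pass. The highest of them, Il1rn, was called without implanted cGAMP 1 or implanted cGAMP 3.

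**Figure D4:**
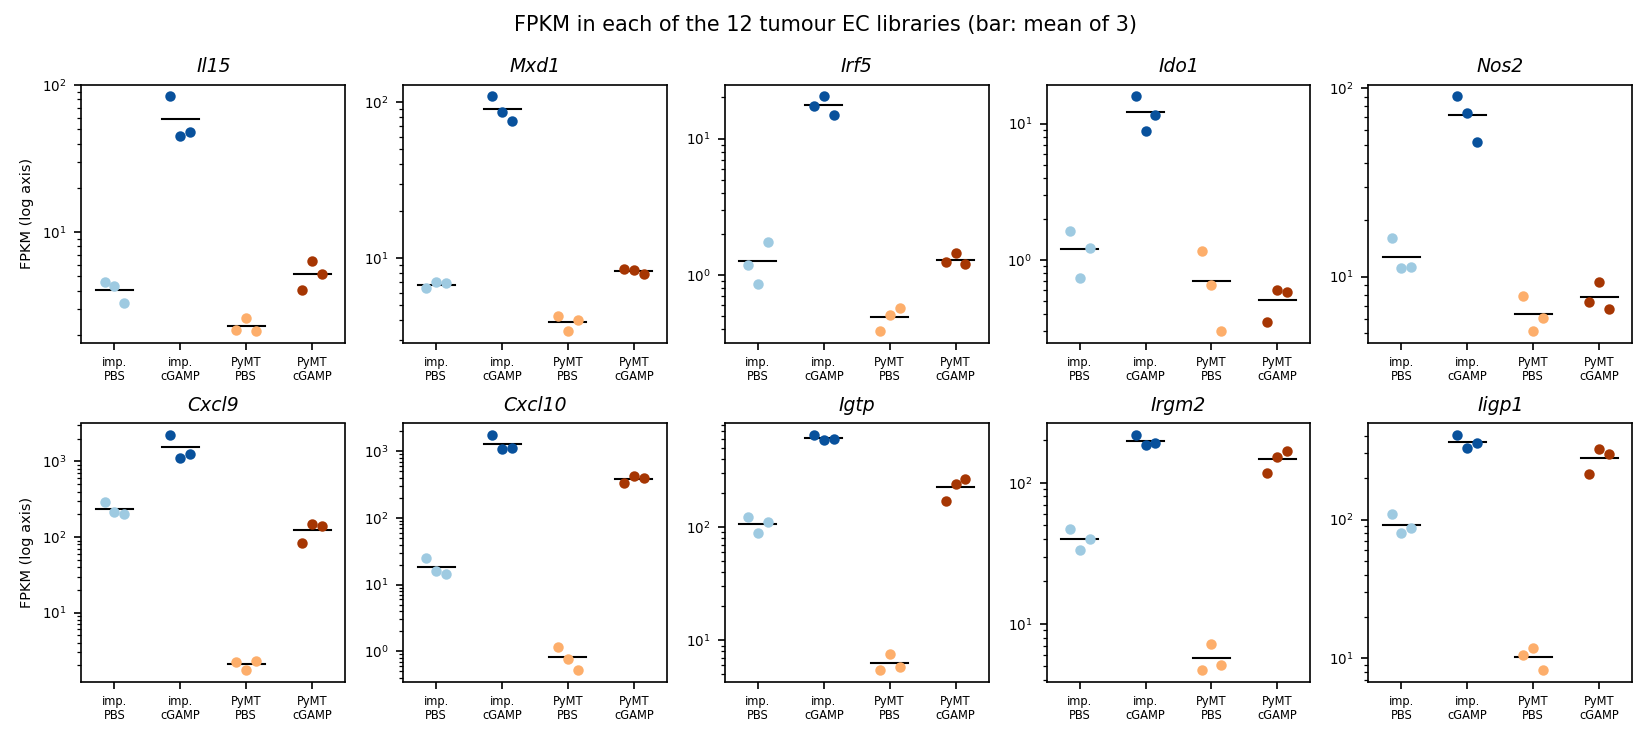
FPKM (log axis) of 5 genes with a larger and 5 with a smaller log2 rise in implanted ECs, with 1 point per library and a bar at the mean of 3; imp. stands for implanted and PyMT for MMTV-PyMT tumours. In the upper row the implanted cGAMP libraries stand alone, and in the lower row the MMTV-PyMT PBS libraries stand alone at the bottom.

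The antiviral genes of the type I interferon response split in both directions. Of 39 tested, 38 were called higher in implanted and 35 in MMTV-PyMT ECs (background 6.13% and 2.49%). The difference was called higher for 4 and lower for 2 (background 1.85% and 0.629%, median 0.34). Ifit1bl1, an Ifit1-like gene, rose from 0.426, 1.1 and 0.358 FPKM to 135, 98.8 and 124 FPKM in implanted ECs and from 0.267, 0.163 and 0.104 FPKM to 8.08, 16.9 and 12.1 FPKM in MMTV-PyMT ECs. Its cGAMP libraries did not overlap between tumour types (difference 2.77, SE 0.322, adjusted p = 8.6e-05), although with voom the value of 1.71 did not pass (adjusted p = 0.295). Its relative Ifit1, whose protein binds viral RNA, went the other way. Ifit1 started at 16.9 ± 3.77 FPKM in implanted and 5.12 ± 3.12 FPKM in MMTV-PyMT ECs (SD, n = 3) and reached 703 ± 32.8 and 811 ± 133 FPKM (difference -1.84, SE 0.375, adjusted p = 0.0045). Isg20, an exonuclease, rose 22.4-fold against 8.51-fold (difference 1.75, SE 0.225), and Samhd1, which degrades deoxynucleotides, 7.48-fold against 3.12-fold (1.32, SE 0.225, and 0.84 with quantile normalization). Isg15, a ubiquitin-like protein, rose 17.7-fold against 46.6-fold (-1.31, SE 0.355), and its call was lost without implanted PBS 1 (-1.10), MMTV-PyMT PBS 1 (-1.02), MMTV-PyMT PBS 3 (-1.25), MMTV-PyMT cGAMP 2 (-1.28) or MMTV-PyMT cGAMP 3 (-1.30), with adjusted p up to 0.0637. With only the 12 tumour libraries Isg15 was not called either (adjusted p = 0.051). The difference of Oas3, at 1.43, was 0.11 with a pseudocount of 0.1 and turned to -1.01 with voom, and its PBS values in MMTV-PyMT ECs were 0.0213, 0.796 and 0.0779 FPKM. The count called lower in this list was 1 without implanted PBS 1 and 5 without MMTV-PyMT PBS 2, and 11 with quantile normalization.

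Some interferon genes rose by similar amounts on the log2(FPKM + 1) scale. Of 309 genes called higher in both tumour types, 57 had a 95% interval of the difference within 0.75 either way, against a median half-width of 0.39 over all genes. The 8 with the largest mean rise were Ifit1bl2, Oas1b, Rnf213, Samd9l, Socs1, Helz2, Trim21 and Znfx1. Oas1b rose by 3.10 in implanted and 3.09 in MMTV-PyMT ECs (difference 0.00, SE 0.201), and Samd9l by 2.86 and 2.98 (difference -0.12, SE 0.195). Socs1, the feedback inhibitor of JAK kinases, rose by 2.60 and 2.71, from 6.39 against 1.1 FPKM on average under PBS. This likeness rested on the scale, since the lowest difference over the alternatives was -1.03 for Oas1b, -1.64 for Ifit1bl2 and -0.76 for Socs1, each with voom, and -0.84 for Znfx1 with quantile normalization (adjusted p = 0.00132). None of the 8 was called in any alternative. On average Oas1b went from 2.05 to 24.8 FPKM in implanted and from 0.528 to 11.8 FPKM in MMTV-PyMT ECs.

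Above these targets stands the sensing pathway itself. Of 14 tested genes of STING signalling and cGAMP import, 2 were called higher and 0 lower (background 1.85% and 0.629%), with a median of 0.02. Tbk1, the kinase that STING recruits, measured 9.74, 9.79 and 8.57 FPKM in implanted PBS and 36.9, 26.8 and 28.6 FPKM in implanted cGAMP libraries, and 11.6, 10.4 and 11.4 against 15.2, 17.6 and 16.4 FPKM in MMTV-PyMT ECs. Its PBS levels were close and its cGAMP levels did not overlap (difference 1.09, SE 0.155, adjusted p = 0.00041), which fell under 1 without implanted cGAMP 1 (0.95), with total reads (0.90) and with quantile normalization (0.80). Ifi204, a DNA sensor of the PYHIN family, rose by 3.86 against 2.51 (difference 1.35, SE 0.349), and its call was lost without implanted PBS 3 or MMTV-PyMT PBS 1 (1.23 in each). On the ratio scale its rise was 19.7-fold against 16.3-fold, and with a pseudocount of 0.1 its difference was 0.50 and did not pass (adjusted p = 0.55). With voom it was 0.33 (adjusted p = 0.825). The related Ifi207 had a difference of 2.12 (SE 0.214), which did not pass with voom (1.54, adjusted p = 0.0815). Among 21 interferon receptor, JAK and STAT genes, 10 were called higher in each tumour type (background 6.13% in implanted and 2.49% in MMTV-PyMT ECs). The difference was called for 1 (background 1.85% higher and 0.629% lower). This was Irf5, a transcription factor of interferon and cytokine genes, with 1.18, 0.855 and 1.74 FPKM under PBS and 17.2, 20.4 and 15 FPKM under cGAMP in implanted ECs, and 0.389, 0.508 and 0.569 against 1.24, 1.45 and 1.21 FPKM in MMTV-PyMT ECs (difference 2.42, SE 0.278, adjusted p = 7.9e-05). Irf1, an interferon-induced transcription factor, had -0.998 (adjusted p = 0.00232), just short of the limit on size, from 1.53 in implanted and 2.53 in MMTV-PyMT ECs.

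Among the 12 genes with the largest positive difference, several lay outside the interferon lists. Mxd1 (ENSMUSG00000001156.9, chromosome 6, 86647042 to 86669161), a partner of MAX that opposes MYC, had the smallest SE among them. It measured 6.43, 6.99 and 6.93 FPKM in implanted PBS, 109, 86.4 and 75.2 FPKM in implanted cGAMP, 4.27, 3.42 and 4.01 FPKM in MMTV-PyMT PBS and 8.54, 8.41 and 7.91 FPKM in MMTV-PyMT cGAMP libraries. The ratio of means was 13.3 against 2.12 (difference 2.61, SE 0.157, adjusted p = 2.7e-07). The implanted cGAMP libraries stood above all others by more than their own range. Nos2, the inducible nitric oxide synthase, went from 12.8 ± 2.77 (SD, n = 3) to 71.9 ± 19.4 FPKM in implanted ECs and from 6.37 ± 1.39 to 7.79 ± 1.36 FPKM in MMTV-PyMT ECs, where the libraries overlapped (difference 2.13, SE 0.316). Prkcq, the kinase PKC-theta, and Phf11b had differences of 2.33 and 2.11. Phf11b did not pass with a pseudocount of 0.1 (1.24, adjusted p = 0.195) or with voom (1.08, adjusted p = 0.424).

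Genes of leukocyte adhesion and immune checkpoints were called higher for 4 of 18 and lower for 0 (background 1.85% and 0.629%), and the median difference was -0.03. Ido1, the tryptophan-degrading enzyme that restrains T cells, rose from 1.64, 0.743 and 1.22 FPKM to 15.9, 8.86 and 11.5 FPKM in implanted ECs and stayed at 1.16, 0.657 and 0.302 FPKM under PBS and 0.354, 0.603 and 0.581 FPKM under cGAMP in MMTV-PyMT ECs (difference 2.7, SE 0.385, adjusted p = 4.0e-04). Cd40, a receptor of the TNF family, rose 12.9-fold against 6.01-fold (1.57, SE 0.336), and did not pass with a pseudocount of 0.1 (1.25, adjusted p = 0.0683) or voom (1.20, adjusted p = 0.141). Fgl2, a prothrombinase with immune functions, differed by 1.56 and did not pass with quantile normalization (1.19, adjusted p = 0.0509). Icam1, to which leukocytes bind, differed by 1.04, and it was not called in 8 of the 12 fits without 1 library (0.82 to 1.26 over the 12), nor with total reads (0.85) or quantile normalization (0.56). With only the 12 tumour libraries it was not called either (adjusted p = 0.0788). Vcam1, Sele and Selp, also adhesion molecules, had differences of -0.03, -0.80 and -0.95 that did not pass.

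Gzmb and Ms4a6b are known from lymphocytes and myeloid cells, so their values are given beside the leukocyte sums. Gzmb, a granule protease of cytotoxic cells, measured 8.41, 28 and 3.03 FPKM in implanted cGAMP libraries 1, 2 and 3, and at most 1.04 FPKM in the other 9 tumour libraries (difference 2.53, SE 0.644, adjusted p = 0.018). The leukocyte sums of the same 3 libraries were 106, 509 and 101 FPKM, of which 106 and 101 lay within the range of the implanted PBS libraries (50.6 to 126). Ms4a6b measured 15.6, 15.2 and 9.98 FPKM there and 0.14 to 1.12 FPKM elsewhere (difference 2.59, SE 0.622). Both were lost with voom (adjusted p = 0.271 and 0.268), and Ms4a6b also with a pseudocount of 0.1 (adjusted p = 0.0653). The pan-leukocyte marker Ptprc itself was at 1.7 to 9.24 FPKM in implanted cGAMP and at most 1.09 FPKM in the other 9 tumour libraries.

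Apoptosis of tumour ECs was the question that led the study to this sequencing, so genes of cell death were examined as lists. Of 26 genes that promote apoptosis, 2 were called higher and 0 lower (background 1.85% and 0.629%), with a median of 0.34, and 7 against 0 had an adjusted p under 0.05 with no limit on size (background 7.34% and 3.72%). Bcl2l11, which encodes the BH3-only protein BIM, measured 11.4, 10.9 and 11.5 FPKM in implanted PBS and 34.7, 20.9 and 23.2 FPKM in implanted cGAMP libraries. In MMTV-PyMT ECs its values went from 9.25, 8.88 and 9.85 FPKM to 8.66, 7.16 and 6.82 FPKM, all 3 below the PBS libraries, as for 18.6% of all genes. The difference was 1.40 (SE 0.194, adjusted p = 0.00034) and held in all 21 alternatives. Casp8, the initiator caspase of death receptors, went from 26.4 ± 3.8 to 85.8 ± 20.3 FPKM in implanted and from 17.4 ± 1.76 to 27.1 ± 4.9 FPKM in MMTV-PyMT ECs (SD, n = 3), a difference of 1.05 that fell under 1 without implanted PBS 3 (0.93), implanted cGAMP 1 (0.86) or MMTV-PyMT cGAMP 1 (0.93) and, by less than the last digit given here, without MMTV-PyMT PBS 1. It was 0.86 with total reads and 0.66 with quantile normalization, also not called. Bid, which links death receptors to mitochondria, differed by 0.96 (adjusted p = 0.0036), below the limit on size, and was called in 5 of 20 alternatives. Daxx and Casp2 had 0.83 and 0.78 (adjusted p = 0.019 and 0.00093). Bax and Bak1, the pore formers, had -0.12 and 0.30, Apaf1 0.39 and Casp9 -0.06, none of which passed, and 15 further members lay between -0.44 and 0.70 and did not pass either.

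The 16 tested genes that restrain apoptosis gave 0 calls by limma (6 higher and 2 lower at an unadjusted p under 0.05, 1 higher and 0 lower called with voom), and 3 had an adjusted p under 0.05, among them the inhibitors Birc2 and Cflar with differences of 0.96 and 0.90. Genes of necroptosis and pyroptosis had the highest median of all lists, 0.87 over 11 genes. All 11 differences were positive, as were 7389 of the 13983 over all tested genes, and 2 were called (background 1.85%). Casp1, the caspase of inflammasomes, went from 8.41 ± 1.69 (SD, n = 3) to 27.7 ± 3.4 FPKM in implanted ECs and from 7.67 ± 0.872 to 11.1 ± 1.42 FPKM in MMTV-PyMT ECs (1.14, SE 0.228, but 0.95 with total reads and 0.88 with quantile normalization). Pycard, the inflammasome adaptor, went from 5.57 ± 0.163 to 14.6 ± 3.37 FPKM and from 5.12 ± 0.111 to 4.92 ± 0.677 FPKM, with overlapping libraries in MMTV-PyMT tumours (1.28, SE 0.231, adjusted p = 0.002). Gsdmd, which forms the pyroptotic pore, and Ninj1, which ruptures the membrane, had 0.93 and 0.92 with an adjusted p of 0.011 and 0.0086. Without implanted cGAMP 3 the number called rose to 5, and with scaling by total reads or quantile normalization it was 1.

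NF-kB genes and immediate-early genes also leaned to higher values. Of 24 NF-kB subunits, targets and feedback genes, Traf1 and Tnip1 were called higher (1.08 and 1.04) and 0 lower (background 1.85% and 0.629%), with a median of 0.39, but neither was called without implanted cGAMP 1 (0.90 and 0.73) or MMTV-PyMT cGAMP 1 (0.997 and 0.93), nor Tnip1 without implanted PBS 2 or MMTV-PyMT PBS 2 (0.99 in each). With a pseudocount of 0.1 neither was called (Traf1 1.20, adjusted p = 0.0656, and Tnip1 0.99). The same held with voom (Traf1 1.17, adjusted p = 0.116, and Tnip1 0.98) and with total reads (0.86 and 0.84). Tnip1 had 0.55 with quantile normalization and was also lost with only the 12 tumour libraries. Feedback genes Nfkbie and Tnip2 had 0.85 and 0.84 (adjusted p = 0.0011 and 0.0018). Of 27 immediate-early genes and phosphatases 3 were called higher (background 1.85%). Dusp4, a phosphatase that shuts off ERK, was the one with a fall in MMTV-PyMT ECs, from 19, 19.2 and 20.6 FPKM to 9.23, 7.3 and 6.78 FPKM, while implanted ECs gave 16.5, 11.2 and 12 FPKM under PBS and 13.1, 19.7 and 8.4 FPKM under cGAMP, which overlap (1.23, SE 0.313, and 0.95 without implanted cGAMP 2). Its relative Dusp5 differed by 1.07 (SE 0.172) through a rise in implanted ECs, and this call was lost without implanted PBS 2 (0.98), implanted cGAMP 1 (0.99) or MMTV-PyMT PBS 1 (0.96) and with total reads (0.89) or quantile normalization (0.81). The third, the orphan nuclear receptor Nr4a3 (1.01), was not called in 6 of the 12 fits without 1 library. Its call was also lost with only the 12 tumour libraries, with total reads (0.84) and with quantile normalization (0.97).

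Among the 41 genes that fell in implanted ECs without a call in MMTV-PyMT ECs, the largest differences belonged to Exoc3l2 and Hecw2, and Gm49958, which rose in MMTV-PyMT ECs, had -2.23. Exoc3l2, a relative of exocyst subunits, measured 28.6, 30 and 22.9 FPKM in implanted PBS and 7.12, 6.96 and 6.99 FPKM in implanted cGAMP libraries, and 15.4, 11.5 and 10.2 against 10.9, 19.6 and 19.5 FPKM in MMTV-PyMT ECs, where the treatments overlap, while in implanted ECs they do not. All 3 cGAMP values lay below PBS for 22.8% of all genes there. The difference was -2.18 (SE 0.304, adjusted p = 0.00034). Hecw2, a ubiquitin ligase, fell from 9.72, 12.6 and 12.3 FPKM to 3.04, 2.66 and 3.94 FPKM in implanted ECs, with 5.31, 4.43 and 4.27 against 5.04, 9.22 and 6.97 FPKM in MMTV-PyMT ECs (difference -2.06, SE 0.245). Both genes thus went from a higher to a lower level in implanted than in MMTV-PyMT ECs, at 2.2-fold and 2.48-fold under PBS and 0.421 and 0.454 of the MMTV-PyMT mean under cGAMP, where the difference in level was called for Exoc3l2 and not for Hecw2. Pinc, a long non-coding RNA of mammary epithelium, also fell in implanted ECs (4.98 ± 2.32 to 1.03 ± 0.44 FPKM, SD, n = 3), against no call in MMTV-PyMT ECs (9.62 ± 1.33 and 10.8 ± 2.68 FPKM), and the epithelial marker sums, 974 to 1320 FPKM under PBS and 492 to 1010 under cGAMP in implanted libraries, moved with it, whose part was not tested.

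Of 30 tip cell and angiogenesis genes 1 was called higher, Pgf, and 1 lower, Esm1, a proteoglycan secreted by tip cells (background 1.85% and 0.629%). Pgf, a ligand of the VEGF family, had a difference of 1.12, which was not called without implanted PBS 2 (1.07), implanted cGAMP 1 (0.85) or MMTV-PyMT PBS 1 (0.99), with total reads (0.94) or with quantile normalization (0.88). Esm1 measured 136, 107 and 143 FPKM in implanted PBS and 71.5, 55 and 54.3 FPKM in implanted cGAMP libraries, against 4.85, 8.4 and 7.81 and 5.1, 16.2 and 7.03 FPKM in MMTV-PyMT ECs (difference -1.35, SE 0.405, adjusted p = 0.041). This call was lost in 7 of the 12 fits without 1 library, down to -0.92 without MMTV-PyMT cGAMP 2. It was also lost with a pseudocount of 0.1 (adjusted p = 0.0588) and with only the 12 tumour libraries (adjusted p = 0.0882). Gja5, the arterial connexin, was the 1 of 25 arterial, venous and Notch genes called lower, with 12.5, 12.7 and 11.8 FPKM under PBS and 6.89, 6.21 and 7.17 FPKM under cGAMP in implanted ECs and 1.27, 1.19 and 1.05 against 1.33, 2.58 and 1.62 FPKM in MMTV-PyMT ECs (difference -1.15, SE 0.228, and -0.97 without MMTV-PyMT cGAMP 2). Among 23 shear, vasoactive and coagulation genes 1 was called higher and 1 lower, the latter being Ednrb, an endothelin receptor (-1.03), whose call was lost in 5 of the 12 fits without 1 library. With only the 12 tumour libraries Ednrb was not called either (adjusted p = 0.0658). The 28 genes of endothelial identity and junctions gave 0 calls by limma, with 1 at an adjusted p under 0.05. At an unadjusted p under 0.05 there were 2 higher and 2 lower, and voom called 0 higher and 0 lower. Pecam1 and Cdh5 had log2 differences of 0.0086 and 0.031, which did not pass.

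The remaining lists are given against the background of 1.85% called higher and 0.629% lower. For antigen presentation 1 of 24 was called higher, the class II chaperone H2-DMb1 (1.06), while 8 had an adjusted p under 0.05 with no limit on size (background 7.34%), all higher, among them H2-T23 at 0.81 and Psmb10 at 0.65. H2-DMb1 was lost in 5 of the 12 fits without 1 library, with only the 12 tumour libraries, with total reads (0.85) and with quantile normalization (0.92). Under PBS 21 of the 24 were already called higher in implanted ECs (background 4.28%), and 23 under cGAMP (background 7.02%). In the cell cycle list Ccnd2, cyclin D2, was called higher (1.12, but 0.94 without MMTV-PyMT cGAMP 1, 0.94 with total reads and 0.93 with quantile normalization) and Cdkn2b, a kinase inhibitor, lower (-1.28, lost in 7 of the 12 fits), with a median of -0.26 over 29 genes. Cdkn2b was also lost with a pseudocount of 0.1 (adjusted p = 0.133), with voom (adjusted p = 0.0788) and with only the 12 tumour libraries (adjusted p = 0.0619). Among 28 matrix and protease genes Mmp3, Mmp2 and Mmp25 were called higher (1.85, 1.13 and 1.01). The count over the list was 0 without implanted cGAMP 2, the library with the highest fibroblast sum, 0 with total reads, and 7 without implanted cGAMP 3. Mmp3 was not called in 15 of 20 alternatives, 10 of them fits without 1 library, and Mmp25 in 8 of 20, 5 of them such fits, while Mmp2 was lost without implanted cGAMP 2 (0.93) and in no other fit without 1 library. Mmp2 was also lost with total reads (0.96) and with quantile normalization (0.97). The part of fibroblast RNA was not tested. The lists of the unfolded protein response (18 genes) and of glycolysis and hypoxia (24 genes) gave 0 calls by limma, with 2 higher and 1 lower and 3 higher and 1 lower at an adjusted p under 0.05. At an unadjusted p under 0.05 the first gave 2 higher and 3 lower, with 0 called by voom, and the second 3 higher and 1 lower, with 0 called by voom.

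**Figure D5:**
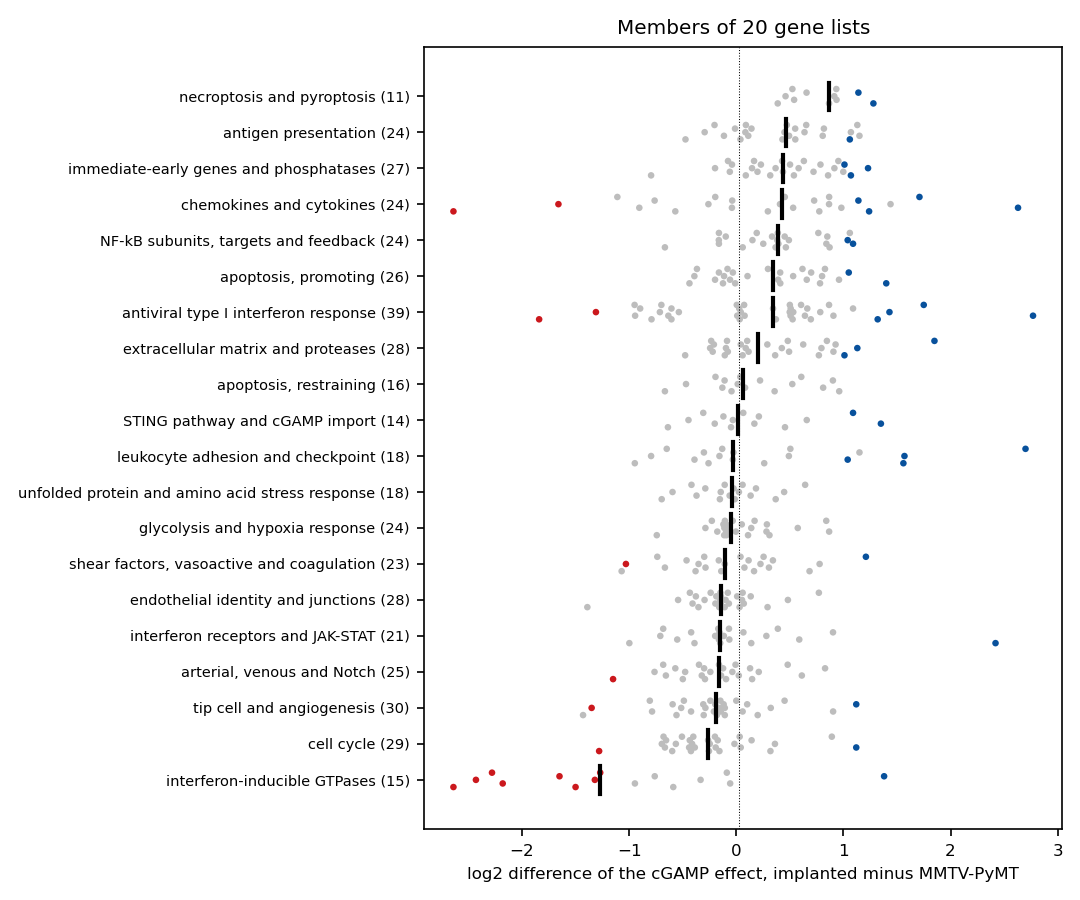
Log2 difference of the cGAMP effect, implanted minus MMTV-PyMT, for the members of 20 gene lists with the number tested in parentheses, blue where called higher, red where called lower and grey otherwise; bars are list medians and the dotted line is the median of all tested genes, 0.02. The GTPase list has the lowest median (-1.27) and the list of necroptosis and pyroptosis the highest (0.87).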

How the data were processed

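According to the study's methods and the submitters' processing notes, CD31-enriched, sorted cells were made into directional libraries (NEBNext Ultra II). Reads were checked with FastQC, aligned to mm10 with STAR 2.7 and counted with HTSeq. The authors deposited 1 table of FPKM values, and how counts were turned into FPKM, and whether counting used the strand, was not stated. Of its 18 columns 12 name tumour type and treatment, and the other 6 were taken as normal fat pad, the tissue that was left. Columns with no sample numbered 0.

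Values were used as log2(FPKM + 1), which understates changes of low genes. Group means of the 18 libraries were modelled in limma 3.58.1 (R 4.3.3, eBayes with a trend, 2-sided), with Benjamini-Hochberg adjustment over 13983 genes. In artificial data with known changes in 200 of 13983 genes, 79% of the changed genes were called and 4 unchanged ones. How often changes were missed or wrongly called in the real libraries was not tested. FPKM steps gave whole reads for all 16248 genes (within 0.1 read at the GENCODE M21 length for 15779), and 1 read on 1 kb was worth 0.0753 to 0.1196 FPKM. FPKM denominators were 0.735 to 0.83 of the reads in implanted cGAMP, 0.964 to 1 in implanted PBS, 1.1 in MMTV-PyMT PBS and 0.987 to 1.02 in MMTV-PyMT cGAMP libraries, so the scaling carried by FPKM differs from total reads mostly in 1 group. All replicate pairs differed beyond sampling noise (chi-square per gene 4.1 to 31.6). The study gives 3 mice per group, drawn from 3 independent experiments. The labels number the libraries without naming animals or experiments, so which library came from which experiment is not known. The p-values measure the spread between these libraries.

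Named genes were the 12 non-predicted genes with the largest called difference in each direction, up to 5 called members per list and direction, opposite calls, the 8 like rises, and the apoptosis-promoting and chemokine and cytokine lists in full. A few genes that this rule names are not reported here. Other list members are given as examples chosen after their values were seen. Members and lists were chosen with earlier results of these data known, so list counts are descriptions. Coordinates are GENCODE M21 (GRCm38), promoters RefSeq. Same-numbered libraries did not deviate together (r -0.345 to 0.294 over 18 pairs), so no block was used.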

Additional observations from a re-analysis of the deposited data

Results flagged for a closer look

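Of 58 genes that were called and met the naming rule, 56 are given here because the contrast is itself a test of a difference between tumour types. Values are log2 differences of the cGAMP effect, implanted minus MMTV-PyMT. Higher in implanted ECs were the interferon response and sensing genes Ifit1bl1 (2.77), Isg20 (1.75), Oas3 (1.43), Samhd1 (1.32), Gbp2b (1.38), Ifi204 (1.35), Ifi207 (2.12), Phf11b (2.11), Irf5 (2.42) and Tbk1 (1.09). So were the cytokine, adhesion, antigen presentation and leukocyte genes Il15 (2.63), Il33 (1.71), Csf1 (1.24), Cx3cl1 (1.14), Ido1 (2.7), Cd40 (1.57), Fgl2 (1.56), Icam1 (1.04), H2-DMb1 (1.06), Ms4a6b (2.59) and Gzmb (2.53). Genes of cell death, NF-kB and other signalling with a higher value were Bcl2l11 (1.40), Casp8 (1.05), Casp1 (1.14), Pycard (1.28), Traf1 (1.08), Tnip1 (1.04), Nos2 (2.13) and Prkcq (2.33). Those of transcription, the cell cycle, phosphatases and matrix were Mxd1 (2.61), Ccnd2 (1.12), Dusp4 (1.23), Dusp5 (1.07), Nr4a3 (1.01), Pgf (1.12), Mmp2 (1.13), Mmp3 (1.85) and Mmp25 (1.01).

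On the log2 scale the cGAMP effect was lower in implanted ECs for the interferon-inducible genes Iigp1 (-2.64), Igtp (-2.43), Tgtp1 (-2.28), Irgm2 (-2.18), Gbp2 (-1.65), Irgm1 (-1.50), Cxcl9 (-2.64), Cxcl10 (-1.66), Ifit1 (-1.84) and Isg15 (-1.31). The mean level under PBS was higher in implanted ECs for each of them. Genes with a lower value outside that response were Gm49958 (-2.23), Exoc3l2 (-2.18), Hecw2 (-2.06), Pinc (-1.63), Esm1 (-1.35), Cdkn2b (-1.28), Gja5 (-1.15) and Ednrb (-1.03). Of the 58 genes, 24 were called in every alternative that included them (20 or 21 per gene), and 34 were not called in at least 1.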

How the results depend on the processing

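With a pseudocount of 0.1 the difference was called higher for 325 and lower for 215 genes, the change in implanted ECs lower for 544, and that in MMTV-PyMT ECs higher for 563 and lower for 37. Among genes averaging at least 5 FPKM the difference gave 168 and 54. Scaling by total reads gave 143 and 157 for the difference, 552 and 433 in implanted ECs and 26 lower in MMTV-PyMT ECs. With voom the lower counts were 215, 587 and 56, and 536 genes were higher in MMTV-PyMT ECs. With no limit on size the counts were 1026 and 520, 2841 and 2623, and 1037 and 639. Leaving out 1 library gave 223 to 338 higher and 69 to 126 lower for the difference, 775 to 978 and 127 to 216 in implanted ECs, and 322 to 395 and 7 to 26 in MMTV-PyMT ECs, the highest of these without MMTV-PyMT cGAMP 1.

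The difference reversed for Gbp2b with a pseudocount of 0.1 (-0.0397) and with voom (-0.80), and for Oas3 with voom (-1.01). On linear FPKM the implanted increment was larger by 1182 for Cxcl9, 4.82 for Iigp1, 286 for Igtp, 52.1 for Tgtp1, 16.8 for Irgm2, 907 for Cxcl10, 1053 for Gbp2, 3.31 for Irgm1 and 506 for Isg15. The cause was not tested, other than that the linear scale takes differences where the log scale takes ratios. With the replicate block 258 genes were higher and 87 lower, and 0 of the 58 named calls were lost. Since libraries sharing a number correlated at -0.345 to 0.294, with 4 of 18 pairs over 0.1, the numbers are not taken to pair the mice. Of the 58 calls, 10 were lost with only the 12 tumour libraries, 17 with quantile normalization, 15 with total reads and 2 to 12 on leaving out 1 library. With 3 libraries per group the 95% interval of a difference had a median half-width of 0.39, and genes under 1 FPKM in a group rest on few reads.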
